A study of Mus musculus with 12 samples.

Results

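The comparison set mouse 3T3 cells given Shld1 at 10 nM, the lowest dose of the study, against controls of the same line. Its members were the 3 arrays labelled 10 nM and the 3 labelled as control, 6 of the 12 arrays in the series. The other 6 arrays, 3 at 100 nM and 3 at 1 µM, entered the fit, and are used below to set the higher doses beside 10 nM and to bin genes by level. 3T3 is an established fibroblast line, and Shld1 is the only agent the labels name. The sources used here do not say whether the cells carried a fusion protein for the ligand to act on, what vehicle controls received or how long the treatment lasted. Each array compared Cy5-labelled RNA of 1 sample with a Cy3-labelled mouse reference RNA, with no dye swap. The labels do not say that replicates were separate cultures, so the p-values measure the spread of these samples alone, which may be technical.

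Shld1 is a synthetic, cell-permeable ligand of an engineered form of FKBP12, the small binding protein of the immunosuppressants FK506 and rapamycin. A protein fused to the engineered domain is degraded by the proteasome until the ligand binds and shields it, which makes Shld1 a switch for protein level. Native FKBP12 binds calcium release channels and a TGF-beta receptor, and its complexes with the immunosuppressants block calcineurin or mTOR. The genes of these pathways are therefore described below beside those of inflammation, stress and matrix.

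A value is the log2 ratio of sample over reference for 1 probe on 1 array, less the median of that array. The log base was taken as 2, and the direction (sample over reference) was settled by the dye labels together with known fibroblast and leukocyte transcripts. Were the deposited ratios the other way up, higher and lower would trade places throughout. Of 38784 probes, 31704 had a value on at least 2 of 3 arrays on both sides and were tested, 28286 of them on all 6 arrays. The tested probes with 1 gene symbol covered 14905 genes. Between 13.7% and 17.8% of probes were blank on an array of either group. Pairs of arrays correlated across probes at 0.739 to 0.786 within control, at 0.706 to 0.816 within 10 nM and at 0.656 to 0.811 between the groups, so by these ranges the arrays of a group were no closer to each other than to the other group.

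The cells had fibroblast transcripts at both conditions. Of 13 fibroblast markers, 12 lay above 0, the median of the array, in control and 12 at 10 nM, with array means of 1.33 to 1.66 in control and 1.20 to 1.36 at 10 nM. The marker below 0 was Pdgfra, a growth factor receptor, and the collagen gene Col3a1 was close to it (0.01 in control and 0.06 at 10 nM). Of 6 measured leukocyte and macrophage markers, 0 lay above 0 in either group. Their array means were -1.68 to -0.68 in control and -0.84 to -0.47 at 10 nM, and the lowest of these was control replicate 1. Other panels also held markers above 0. In control these were 2 of 2 measured endothelial, 2 of 3 muscle, 2 of 3 adipocyte and 2 of 5 epithelial markers. At 10 nM they were 2 of 2, 1 of 3, 2 of 3 and 1 of 5. A place above 0 was thus not particular to fibroblast markers. Array medians lay below the reference by 0.11 to 0.19, so 0 here is not the level of the reference itself. A ratio to a mixed reference shows a level against that mix only, and part of these genes served to set the direction. In RNA of whole cultures, fewer cells of a type and less RNA per cell cannot be told apart.

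No transcript passed the test at 10 nM. By limma with Benjamini-Hochberg adjustment, 0 of 31704 probes were past the threshold (0%), with a smallest adjusted p of 1.00. At an unadjusted p under 0.05 there were 899 probes (2.84%), 492 with higher and 407 with lower values than control. By gene, 0 of 14905 passed and 396 had an unadjusted p under 0.05 (2.66%). For 77.5% of probes and 83.1% of genes the whole 95% interval of the change stayed inside 2-fold in both directions. The estimate itself was beyond 2-fold for 448 probes (1.41%), 247 higher and 201 lower, and for 1.01% of genes. Sizes of log2 change had a median of 0.15 and their SE a median of 0.24, so a typical change was smaller than its error. Precision is limited by having 3 arrays a group, and a probe that did not pass is not shown to be unaffected.

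The genes named next are the 12 with higher and the 12 with lower values at the smallest unadjusted p, so their size is a product of that choice. The groups did not overlap for 23 of the 24, beside 6.67% of all probes measured on all 6 arrays. The adjusted p in limma was 1.00 for each of them.

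Of the 12 genes with higher values at 10 nM, Il6 had one of the 3 smallest unadjusted p. Il6 encodes interleukin-6, an inflammatory cytokine that fibroblasts can secrete. Its log2 ratios were 0.12, 0.18 and -0.47 on the control arrays and 1.42, 1.08 and 0.64 on the 10 nM arrays. Each treated array lay above each control array, with the smallest gap between 10 nM replicate 3 and control replicate 2. The means were -0.06 ± 0.36 (SD, n = 3) and 1.05 ± 0.39 (SD, n = 3), a change of 1.10 (SE 0.25, 95% interval 0.55 to 1.65). An immunoglobulin kappa variable segment, a gene of B lymphocytes read by probe 32461, was at -0.43, -0.58 and -0.10 in control against 0.44, 0.48 and 0.73 at 10 nM, a change of 0.92 (SE 0.20). Fastkd1 belongs to a family of mitochondrial RNA regulators and had the largest change of the 12, at 1.35 (SE 0.36). Its treated arrays disagreed among themselves, at 1.87, 1.78 and 0.48, while its control arrays stayed between -0.16 and 0.20. Nt5c1b, a cytosolic nucleotidase gene, was at -0.92 to -0.77 in control and at -0.38 to 0.14 at 10 nM.

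The remaining higher genes had changes of 0.65 to 1.21. Spn, which encodes the leukocyte surface protein sialophorin, was 1.21 (SE 0.29) higher, and Fbxw11, a subunit of a ubiquitin ligase that acts on IkB and beta-catenin, was 0.99 (SE 0.26) higher. Dchs1, a large cadherin of planar cell polarity, was 0.95 (SE 0.26) higher, with control arrays from -1.26 to -0.48 and treated arrays from -0.10 to 0.19. The lipocalin gene Lcn4 and the potassium channel gene Kcnh8 differed by 0.89 (SE 0.23) and 0.85 (SE 0.22). Sh3yl1, Nol4l and Ccdc181 had changes between 0.65 and 0.71.

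Among the genes with lower values, Vgll3 had the smallest unadjusted p. Vgll3 encodes a cofactor of the TEAD transcription factors. Its log2 ratios were -0.31, -0.25 and -0.26 in control and -1.98, -1.19 and -1.32 at 10 nM. The control arrays lay within 0.1 of each other, and all treated arrays were lower by far more than that spread. The means were -0.27 ± 0.03 (SD, n = 3) and -1.50 ± 0.43 (SD, n = 3), a change of -1.23 (SE 0.23, 95% interval -1.74 to -0.71). Art5, an ADP-ribosyltransferase gene, had the largest difference, -1.51 (SE 0.37), with controls at -0.28, -0.60 and -1.17 and treated arrays at -2.95, -2.02 and -1.60. Its replicates spread widely in both groups. Hspa2, an HSP70 chaperone gene best known from the testis, read 0.98, 0.49 and 0.00 in control against -0.27, -0.38 and -1.51 at 10 nM, a change of -1.21 (SE 0.35). Here 10 nM replicate 3 lay far below the other treated arrays.

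The other lower genes had smaller changes. They include the olfactory receptor gene Olfr767 (-0.85, SE 0.19), the serine protease inhibitor genes Serpinb3d (-0.99, SE 0.28) and Serpina9 (-0.77, SE 0.21), and Ggn, a gene of male germ cells (-0.71, SE 0.21). Umodl1 had a change of -0.65 (SE 0.18). The tyrosine kinase gene Srms was at -0.67 (SE 0.19) and the potassium channel subunit gene Kcnf1 at -0.81 (SE 0.24). Kcnf1 was the one gene of the 24 whose groups overlapped, control replicate 3 at -0.27 lying below 10 nM replicate 1 at -0.19.

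**Figure D1:**
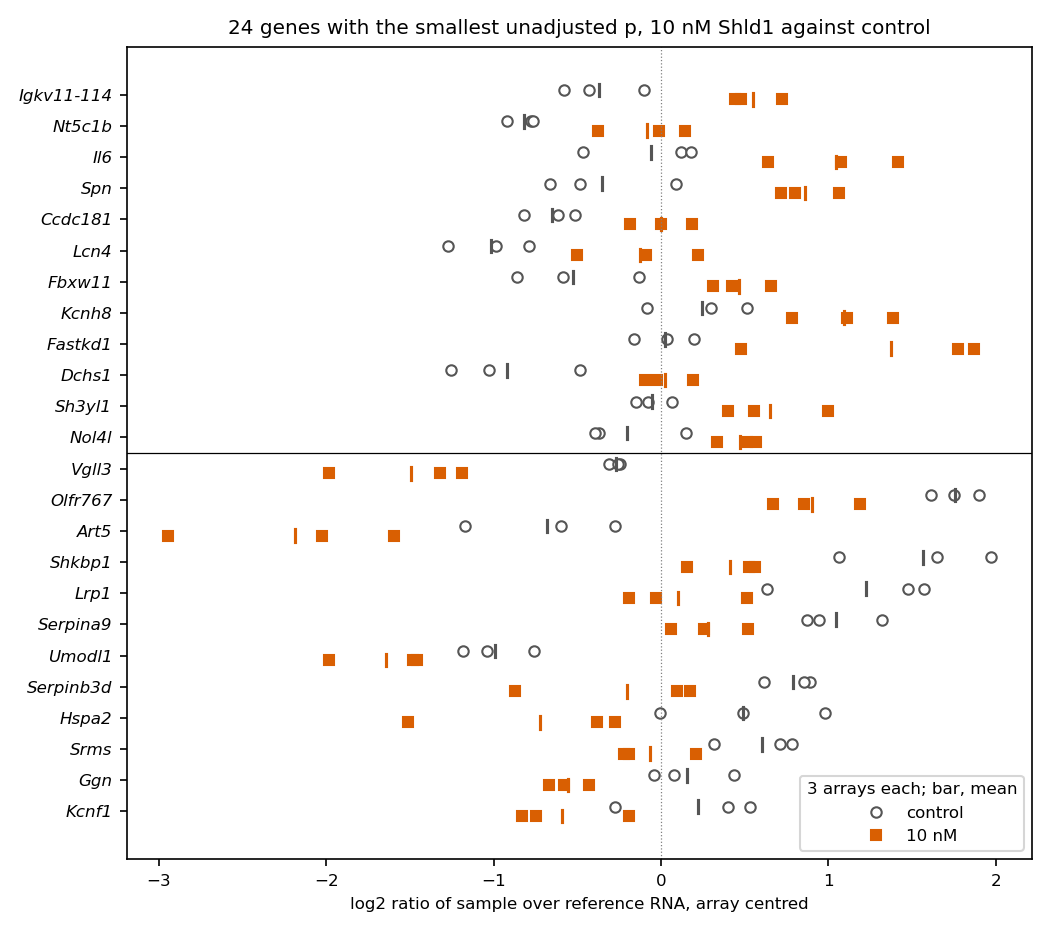
Log2 ratio of sample over reference (x axis) on each of the 6 arrays for the 24 named genes, 12 higher and 12 lower at 10 nM; open circles are control arrays, filled squares 10 nM arrays and short bars group means. Circles and squares separate in all but Kcnf1, and Fastkd1, Art5 and Hspa2 have the widest spread among treated arrays.

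Other probes of the same genes gave a second reading that the choice did not use. Of the 24 genes, 9 had at least 1 further tested probe. For Nol4l the other probe also read higher, at 0.45 beside 0.68 on the named probe. For Vgll3 it read -0.19 beside -1.23, and for Kcnf1 -0.11 beside -0.81. For Olfr767 it read 0.36 beside -0.85, on the other side of 0. The other probes of Spn (-0.05), Shkbp1 (0.03), Srms (0.07) and Fbxw11 (-0.19) also lay on the other side of 0 from the named probes. Lrp1, an endocytic receptor of many ligands, had the most probes of any gene on the array. Its named probe read -1.13, while its 93 others lay between -0.41 and 0.31 with a median of 0.09, 15 of them below 0. The probes' sequences are not used here, so whether 2 probes of a gene read the same transcript is unknown.

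**Figure D2:**
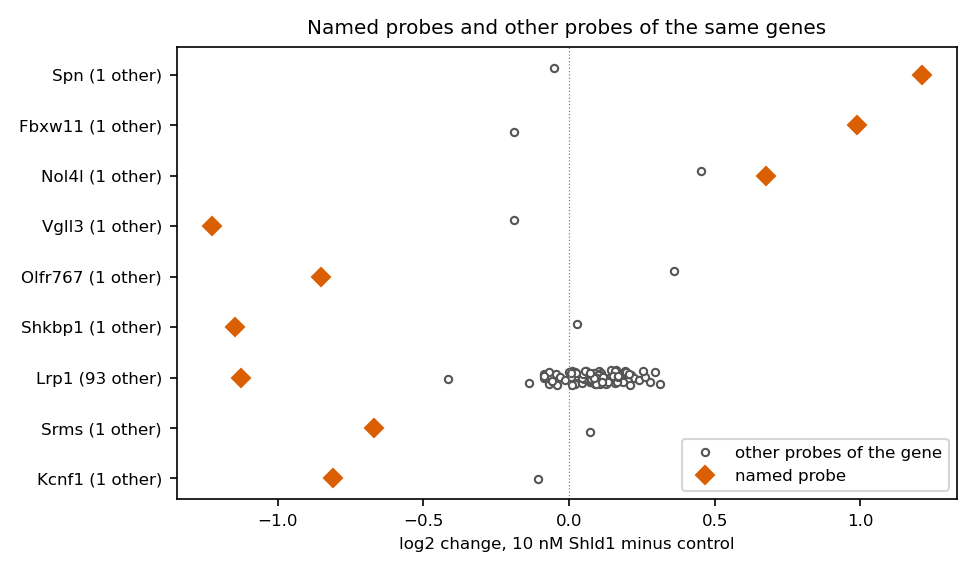
Log2 change at 10 nM (x axis) of the named probe (filled diamond) and of every other tested probe (open circle) for the 9 named genes with more than 1 probe. The other probe lies on the same side of 0 for Nol4l, Vgll3 and Kcnf1, and the 93 further Lrp1 probes centre near 0.

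Genes read by several probes gave a view in which no single spot decides. Of 1296 genes with 3 or more probes measured on all 6 arrays, 317 had every probe on one side of 0, 129 above control and 188 below. Most of the 1296 thus did not. The genes named next were picked by this rule, so the shared direction of their probes is a product of that choice. By the median over probes, the 5 largest above were Ap1s3 (0.90), Ptprc (0.76), Cmah (0.55), Mapk12 (0.52) and Bcl11b (0.47). Ap1s3 encodes a subunit of a clathrin adaptor, Ptprc the leukocyte antigen CD45, Cmah an enzyme of sialic acid metabolism, Mapk12 a p38 kinase and Bcl11b a transcription factor of T cells. Ap1s3 read -2.84, -1.06 and -0.52 in control and -1.15, -0.66 and 0.09 at 10 nM, averaged over its 3 probes. Its groups overlapped, and control replicate 1 lay far below the rest. Control replicate 1 was likewise the lowest of the 6 arrays for Ptprc (-3.48), Cmah (-1.23), Mapk12 (-0.49) and Bcl11b (-1.74). Without it the change of the probes' average was 0.21 in place of 0.90 for Ap1s3, 0.53 in place of 0.97 for Ptprc, 0.20 in place of 0.53 for Cmah and 0.14 in place of 0.45 for Bcl11b. For Mapk12 it was 0.22 in place of 0.41 without 10 nM replicate 2.

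The 5 largest below were Il1rap (-0.52 over 5 probes), Hacd1 (-0.45), Hif3a (-0.43), Ruvbl1 (-0.42) and Ppm1l (-0.41 over 4 probes). Il1rap encodes the shared co-receptor of interleukin-1 and interleukin-33. Averaged over its probes it read 2.10, 1.80 and 1.36 in control and 1.35, 1.54 and 1.25 at 10 nM, a change of -0.37 (SE 0.26). Hif3a, a member of the hypoxia-inducible factor family, read 0.04, 0.24 and 0.10 against -0.22, -0.11 and -0.31, so its groups did not overlap. The change of Hif3a was -0.34 (SE 0.17, 95% interval -0.71 to 0.03). Hacd1 acts in the elongation of very long chain fatty acids and Ruvbl1 is an ATPase of chromatin remodelling complexes. For Ruvbl1 the 3 treated arrays (-0.47, -0.22 and -0.25) lay just below control replicates 2 and 3 (-0.10 and -0.09), while control replicate 1 stood at 0.67. Without that array the change was -0.22 in place of -0.47 for Ruvbl1 and -0.20 in place of -0.37 for Il1rap, and without 10 nM replicate 3 it was -0.13 in place of -0.36 for Ppm1l.

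Gene lists were read for the pathways around the ligand and for cell state. They hold 589 genes, of which 532 were tested. In limma 0 of the 532 passed, and 11 had an unadjusted p under 0.05 (2.07%, beside 2.66% of all genes). All 11 had higher values at 10 nM, while the 396 among all genes were 212 higher and 184 lower. Without control replicate 1 the change was 0.85 in place of 2.10 for Tnf, 0.58 in place of 1.20 for Ifih1 and 0.53 in place of 0.97 for Ptprc. Without control replicate 2 that of Mmp3 was 1.06 in place of 1.85. For Il6 and Egr2 the change was larger without control replicate 1. The interval stayed inside 2-fold in both directions for 467 of the 532 (87.8%, beside 83.1% of all genes). The lists were chosen with earlier results of these data known, so their counts are descriptions.

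The FK506-binding proteins, the family of the domain that Shld1 binds, were centred on 0. Of 14 measured members 6 were above and 8 below control, with a median of -0.03 and a range of -0.41 to 0.26. The gene of FKBP12 itself, Fkbp1a, read 0.52, 0.28 and 0.46 in control and 0.27, 0.52 and 0.31 at 10 nM over 3 probes. These groups interleave. The change was -0.05 (SE 0.14), with a 95% interval from -0.35 to 0.26. Fkbp5, a cochaperone of steroid receptors, read -0.40, -0.52 and -0.29 against -0.71, -0.62 and -0.50, a change of -0.21 (SE 0.17). Its related cochaperone Fkbp4 was at -0.01 (SE 0.19), with a direction that turned under 4 of 14 other settings. That value averages 2 probes on opposite sides of 0, at 0.24 (SE 0.15) and -0.27 (SE 0.32). The members with the smallest p were Aipl1 (-0.38, SE 0.24) and Fkbp7 (-0.41, SE 0.28). The cyclophilins, an unrelated family of prolyl isomerases that includes the cyclosporin target, had a median of 0.01, 7 of 14 above control.

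Lists of the pathways that FKBP12 touches had medians near 0. Calcineurin and NFAT genes had a median of 0.03, 7 of 13 above control. Rcan2, an inhibitor of calcineurin, was at -0.90 (SE 0.47, 95% interval -1.92 to 0.13), with 1.93, 1.71 and 0.89 in control and 1.40, 0.84 and -0.40 at 10 nM. Replicate 3 was the lowest in both of its groups, and without 10 nM replicate 3 the change was -0.39. The mTOR pathway had a median of 0.01 over 19 genes, 10 of them above control, and a median of -0.02 was found for TGF-beta and BMP signalling, 9 of 21 above control. In that list Smurf2, a ubiquitin ligase for SMAD proteins, was at -0.57 (SE 0.30) and Smad2 at -0.37 (SE 0.24). Among 11 calcium channel and pump genes 5 were above control. Trpc1, a plasma membrane cation channel, read -0.51, -0.13 and -0.05 in control and 0.04, 0.22 and 0.36 at 10 nM, a change of 0.44 (SE 0.18). The inositol trisphosphate receptor gene Itpr3 was 0.39 (SE 0.19) higher. The groups did not overlap for these 2 genes, which held for 6.40% of all genes measured on all 6 arrays. For Trpc1 this was so only in the average of its 2 probes, as the groups overlapped on each probe. Without control replicate 1 the change was 0.30 for Trpc1 and 0.18 for Itpr3. The ryanodine receptor gene Ryr2 had values on only 2 treated arrays, 0.60 and -1.04, beside controls at 0.49, 0.92 and 0.56. One treated array thus lay among the controls, and the change of -0.87 (SE 0.44) rests on the other.

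The cytokine lists held Il6 and little else that stood apart. The regulatory sequence of Il6 is shown because it is the listed gene with the smallest p and because its promoter is a textbook target of NF-kB. From RefSeq, build GRCm38.p6, chr5:30012864-30013113 on the plus strand holds the 250 bases before the gene's start, with the match to the NF-kB motif (GGGNN followed by TTTCC) in capitals:

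Il6 promoter: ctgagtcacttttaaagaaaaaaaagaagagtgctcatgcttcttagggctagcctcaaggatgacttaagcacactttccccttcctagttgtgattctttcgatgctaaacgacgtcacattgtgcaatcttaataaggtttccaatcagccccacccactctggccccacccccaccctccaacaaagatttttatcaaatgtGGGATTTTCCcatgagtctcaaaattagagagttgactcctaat

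The NF-kB match lies at -44 to -35 from the start, and 1.41% of 32851 promoter windows of this length hold such a match on either strand. The AP-1 motif TGANTCA, which reads alike on both strands, matched at -249 to -243 and is in 6.75% of windows. A C/EBP motif, TTNNGNAA, matched at -128 to -121 and is in 36.8%. The 3 matches do not overlap. A match is a description of these letters and no evidence that a factor was bound.

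Of 27 NF-kB and cytokine genes, Il6 among them, 16 were above control with a median of 0.06. Nfkbia, the inhibitor that NF-kB itself induces, read -1.40, -0.87 and -0.57 in control and -0.53, -0.61 and -0.26 at 10 nM, a change of 0.48 (SE 0.23), with groups that overlapped. Without control replicate 1 it was 0.25. Tnf, the gene of tumour necrosis factor, had the largest estimate of any listed gene, 2.10 (SE 0.94). It read -5.43, -2.56 and -0.78 in control and -0.98, -1.67 and 0.18 at 10 nM, so the control arrays differed among themselves by more than the groups did. Without control replicate 1 its change was 0.85. The list of interleukin-6 signalling was centred near 0. Among 24 genes of interleukin-6 family signalling 11 were above control, with a median of -0.03. The receptor gene Il6ra was at 0.13 (SE 0.15), the signal transducer gene Il6st (gp130) at -0.11 (SE 0.18), Stat3 at -0.09 (SE 0.18) and the feedback inhibitor gene Socs3 at 0.03 (SE 0.28). These 4 were picked by role after their values were seen. Jak1 (-0.28, SE 0.18) and Pim1 (0.29, SE 0.19) had the smallest p after Il6 in that list.

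Lists of stress and growth responses held single genes with high values and medians near 0. Calr encodes calreticulin, a calcium-binding chaperone of the endoplasmic reticulum. It read -1.22, -0.89 and -0.48 in control and -0.37, -0.01 and 0.64 at 10 nM, a change of 0.95 (SE 0.30, 95% interval 0.28 to 1.61), with no overlap. Of the 23 unfolded protein response genes, Calr included, 12 were above control, and their median was 0.02. Pdia6, a disulfide isomerase gene of that list, was at -0.50 (SE 0.24). Egr2, a serum-induced transcription factor gene, read 0.33, 0.01 and 0.02 against 0.39, 0.61 and 0.65, a change of 0.43 (SE 0.15). The 27 immediate early genes had a median of 0.07, 14 of them above control. Vegfa, the angiogenic factor, was at 0.70 (SE 0.30), its treated arrays at -2.22, -1.20 and -0.83 and its control arrays at -2.19, -2.07 and -2.12. One treated array thus lay at the control level. Egln3 (0.79, SE 0.36) and Bnip3 (0.56, SE 0.26), both hypoxia-induced genes, had estimates above control that were 0.40 and 0.32 without control replicate 1, and 16 of 25 hypoxia and glycolysis genes were above control with a median of 0.03. p53 targets had a median of 0.08 (13 of 19 above), G1/S genes -0.03 (7 of 24 above), G2/M genes -0.06 (9 of 22 above) and NRF2 genes -0.05 (7 of 22 above). Of 17 heat shock genes 13 were below control (a median of -0.06), Stip1 (-0.35, SE 0.19) having the smallest p. Of 27 lysosomal and autophagy genes 18 were below control (median -0.04). Of all genes, 51.4% lay below control.

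Lists of abundant, housekeeping or matrix transcripts lay mostly below control by small amounts, where 51.4% of all genes lay below. Ribosomal protein genes were below control in 27 of 30 with a median of -0.10. Fibroblast and matrix genes were below in 20 of 26 (median -0.09), proteasome genes in 24 of 35 (-0.06) and cholesterol synthesis genes in 14 of 20 (-0.16). Among the latter, the sterol demethylase gene Cyp51 was at -0.39 (SE 0.25), the sterol dehydrogenase gene Nsdhl at -0.29 (SE 0.18) and the mevalonate pathway gene Pmvk at -0.29 (SE 0.20). The probes averaged for Cyp51 differed, at -0.67 and -0.12, as did those for Nsdhl, at -0.60, -0.13 and -0.13. Lum, the gene of the collagen-binding proteoglycan lumican, read 4.50, 3.97 and 4.12 in control and 2.84, 3.36 and 3.46 at 10 nM. These groups did not overlap, and the change was -0.98 (SE 0.47, 95% interval -2.01 to 0.06). Postn, which encodes the matrix protein periostin, was at -0.67 (SE 0.32), and at -0.44 without control replicate 1. Mmp3, a matrix metalloproteinase gene, was at 1.85 (SE 0.78) on the probe measured on all 6 arrays, its controls spread from -5.46 to -2.05. Without control replicate 2 this was 1.06, and a second Mmp3 probe read 0.16 (SE 0.69).

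Interferon and leukocyte genes, whose array means were below 0 on all 6 arrays, had medians above control. Interferon response genes were above control in 15 of 23 (median 0.13), with Usp18 at 1.49 (SE 0.59) and Ifih1, the RNA sensor MDA5, at 1.20 (SE 0.49). Leukocyte and macrophage markers were above in 8 of 13 (median 0.16), with Ptprc at 0.97 (SE 0.44) and Adgre1, a macrophage surface antigen gene, at 0.83 (SE 0.44), or 0.43 without control replicate 1. Muscle markers were above in 7 of 11 (0.13), epithelial markers in 7 of 10 (0.14) and adipocyte markers in 7 of 12 (0.08). Endothelial markers were above in 4 of 8, with a median below control (-0.12). Myf5, a myogenic transcription factor gene, read -0.97, -0.31 and 0.16 in control and 0.40, 0.21 and 0.96 at 10 nM, a change of 0.89 (SE 0.34). Without control replicate 1 that change was 0.60.

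One control array moved with these counts. Over the listed genes measured on all 6 arrays, control replicate 1 had the highest mean of the 6 for ribosomal (0.33), fibroblast (1.25), proteasome (0.52) and cholesterol genes (0.93), and the lowest for interferon (-0.84) and leukocyte genes (-1.54). This array was also the highest for heat shock (0.49), lysosomal (0.35), G1/S (0.43) and G2/M genes (0.45). It was the lowest for NF-kB and cytokine (-0.72), hypoxia (-1.05) and epithelial genes (-0.85), so the counts of these lists carry the same limit. Its values were also spread the most, with a robust SD of 0.73 beside 0.59 to 0.69 on the other 5 arrays. Without control replicate 1, ribosomal genes were below control in 18 of 30 (median -0.03), fibroblast and matrix genes in 14 of 26 (-0.01), proteasome genes in 19 of 35 (-0.01) and cholesterol genes in 13 of 20 (-0.11). Interferon genes then lay below control in 15 of 23 in place of 8 (a median of -0.03). Leukocyte markers lay below in 7 of 13 in place of 5 (a median of -0.03). Leaving out 10 nM replicate 3 lowered the ribosomal count to 17 of 29 and the fibroblast count to 13 of 26. Il6 did not rest on that control array: its change was 1.19 without it, beside 0.77 for Calr, 0.53 for Egr2, 1.07 for Usp18 and 0.58 for Ifih1.

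**Figure D3:**
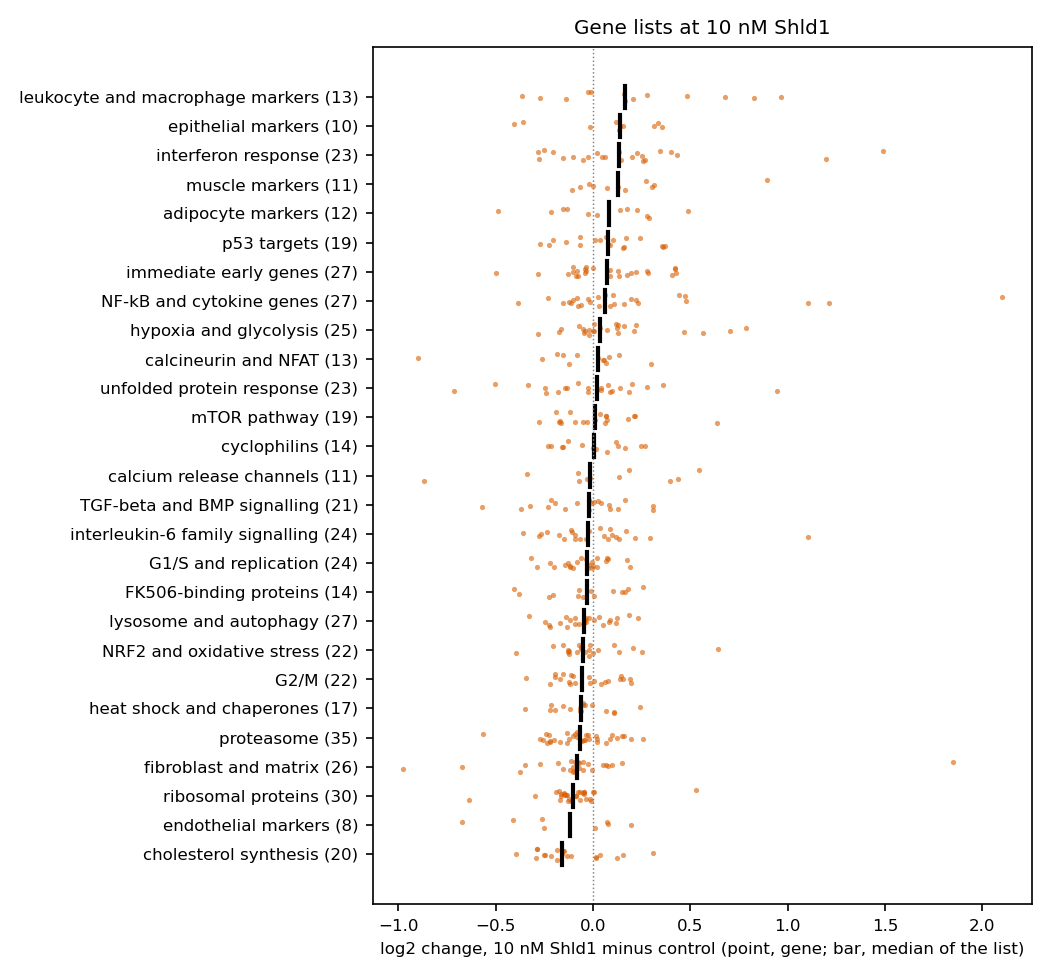
Log2 change at 10 nM against control (x axis) for every tested gene (points) of the 27 lists, sorted by their median (black bars), with the number of genes tested in brackets. The FK506-binding proteins sit at 0 with no member beyond 0.5, and cholesterol, endothelial and ribosomal genes have the lowest medians.

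A pattern over all genes also changed when that array was left out. Tested genes with a value on every 100 nM and 1 µM array were binned by their mean log2 ratio on those arrays, which do not enter the comparison. In control and at 10 nM at least 2 of 3 values were required, so a gene could have a blank there. Of the 686 genes below -1, 57.6% were higher at 10 nM than in control, of the 5517 between -1 and 0 49.7%, of the 6231 between 0 and 1 46.5%, and of the 918 above 1 42.2%. Without control replicate 1 the order turned round, with 42.9%, 48.9%, 51.4% and 54.6%. With arrays scaled to equal spread the shares ran from 56.9% to 42.1%. With quantile normalization the highest share was that of the top bin, beside 45.5% to 48.2% in the other 3. Which genes lay above and which below control at 10 nM therefore followed their level against the reference in a way that changed without control replicate 1 and with quantile normalization. No other array was left out of these bins, so whether the pattern rests on that array more than on others was not tested.

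**Figure D4:**
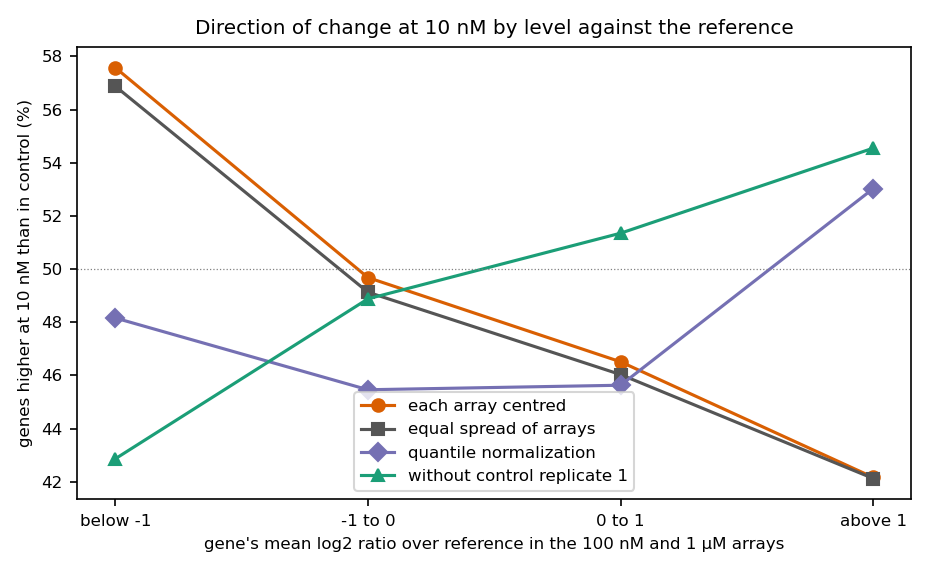
Share of genes higher at 10 nM than in control (y axis, percent) in 4 bins of a gene's mean log2 ratio over reference on the 100 nM and 1 µM arrays (x axis), under 4 treatments of the values. The share falls from 57.6% to 42.2% with each array centred and rises from 42.9% to 54.6% without control replicate 1.

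The 10 nM arrays were last set against the higher doses directly, in differences that do not use the control means, although the control arrays share in the estimate of spread. Against 100 nM 0 of 31426 probes passed in limma (0%), the smallest adjusted p being 0.271, and 1252 had an unadjusted p under 0.05 (3.98%). Against 1 µM 1 of 31471 passed (0.00318%), and 920 had an unadjusted p under 0.05 (2.92%). That probe, 27598, has no gene symbol. It read 0.51, 1.75 and 1.60 at 10 nM and -1.84, -2.64 and -2.33 at 1 µM, a difference of 3.56 (SE 0.36, 95% interval 2.77 to 4.35; adjusted p = 0.0169, limma). The call ended in other fits: 0 probes passed when only these 2 groups entered (smallest adjusted p = 0.340, limma), as with the replicate block as a fixed term (0.119, limma) or array weights (0.0526, limma), and without 10 nM replicate 2, 10 nM replicate 3 or 1 µM replicate 3 in turn. Without 1 µM replicate 2 the 1 call was a probe of Plec in place of 27598. On probe 27598 control arrays, at 1.72, 1.71 and 0.85, and 100 nM arrays, at 0.47, 1.06 and 1.12, lay with the 10 nM arrays. At 10 nM this probe thus stayed at the control level, with a change of -0.14 (SE 0.36).

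None of the 24 named genes differed between 10 nM and a higher dose past the threshold (adjusted p of 0.999 to 1.00, limma). Il6 read 0.62 and 0.28 on the 2 arrays at 100 nM that had a value, and 0.38, 0.75 and 0.44 at 1 µM. The difference between 10 nM and the higher doses was 0.59 (SE 0.28) against 100 nM and 0.52 (SE 0.25) against 1 µM. All 5 of these arrays lay above the highest control array, and only 1 of them, 1 µM replicate 2, lay above the lowest 10 nM array. Vgll3 read -0.80, -1.09 and -0.59 at 100 nM and -0.34 and -0.71 on the 2 measured arrays at 1 µM, all of them between control and 10 nM. Its differences were -0.67 (SE 0.23) and -0.97 (SE 0.26). The immunoglobulin segment differed from 100 nM by 0.50 (SE 0.20) and from 1 µM by 0.75 (SE 0.20). Some other named genes lay about as far from control, or farther, at a higher dose. Shkbp1 was at -1.77 at 1 µM beside -1.15 at 10 nM, and Serpina9 at -0.95 at 100 nM beside -0.77. Serpinb3d was at -0.95 at 100 nM and -1.03 at 1 µM beside -0.99. The same control arrays enter the change at every dose. Since the 24 genes were picked for their values at 10 nM, a smaller distance from control at other doses is partly a product of that choice.

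**Figure D5:**
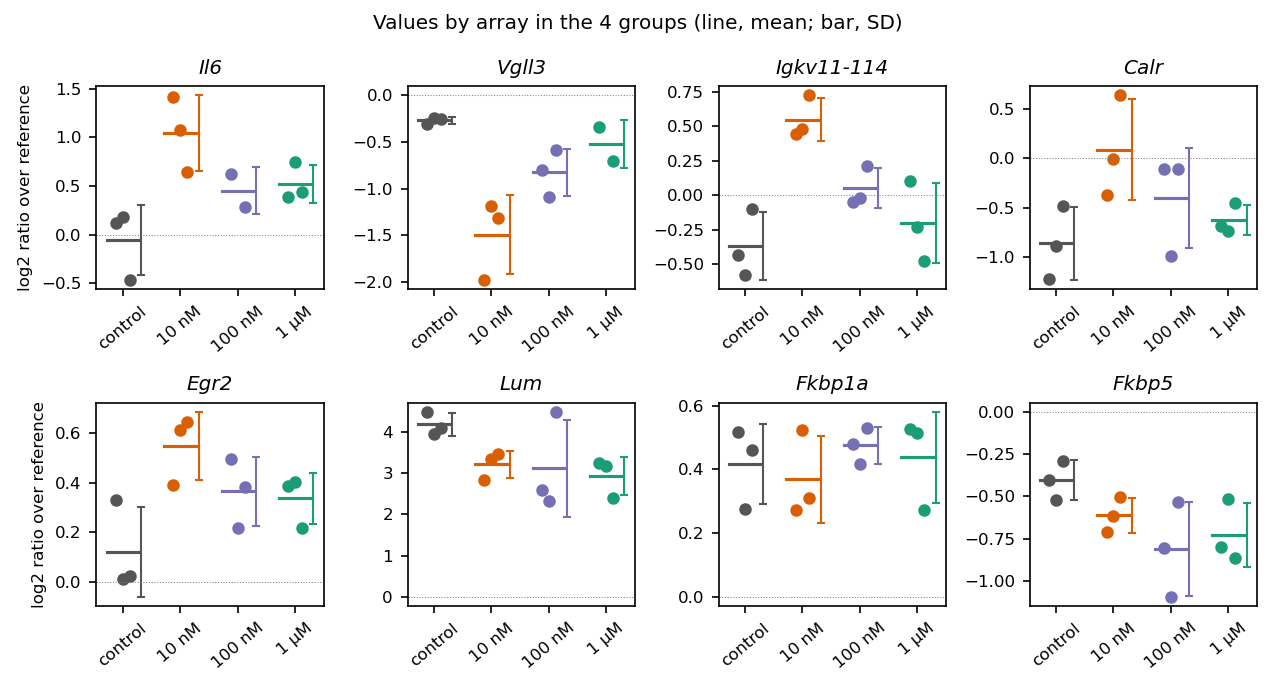
Log2 ratio over reference (y axis) on each array in control and at 10 nM, 100 nM and 1 µM for 8 genes; points are arrays, lines group means and bars SD. By group means, Il6 and Vgll3 lie farthest from control at 10 nM and nearer to it at both higher doses, while Lum and Fkbp5 lie farther from it at both higher doses. For Lum, 100 nM replicate 3, at 4.49, lies among the control arrays, and the 10 nM and 100 nM means differ by only 0.09. The 4 groups of Fkbp1a interleave.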

How the data were processed

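RNA of 12 samples was hybridised on 2-colour arrays, each sample in Cy5 against a mouse reference RNA in Cy3, per the labels. The authors deposited 1 log2 ratio per probe and array. The base 2 is assumed. The sources used here do not give the normalization, background correction, spot filters or direction of the ratio. Scanner intensities were not analysed here, so signal over background is unknown. Array medians of the 6 arrays were -0.19 to -0.11, and each array was centred on its median.

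Of the 38784 probes, 26173 have 1 symbol in the platform's annotation, 28 several and 12583 none. Symbols were checked by gene identifier against RefSeq (GRCm38.p6), and 0 changed. Probes of a gene that had values on all 12 arrays were averaged. A gene without such a probe took the probe with the most values. Tests were run in limma 3.58.1 (R 4.3.3) on the 12 arrays together with no covariate but group, adjusted by Benjamini-Hochberg at 0.05 over all probes or genes with at least 2 of 3 values on both sides; 7080 probes were left out. The fit was tested on simulated data.

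Genes named are those that passed; with fewer than 10, the 12 genes in each direction that had the smallest unadjusted p, 1 probe a gene with 1 symbol and all 6 values, provisional symbols passed over. To these were added the 5 and 5 genes with 3 or more probes all on one side of 0 and the largest median, up to 3 members of each of 27 lists, and Fkbp1a, Fkbp4, Fkbp5 and Il6. The members and lists were chosen with earlier results of these data known. Other settings covered centring, scaling, quantile normalization, probe filters, the replicate number as a block, fits of 2 groups, array weights, robust variance, single values per gene and the removal of each array. List counts and level bins by setting were added after the data were seen.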

Additional observations from a re-analysis of the deposited data

Results flagged for a closer look

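Probe 27598, which has no gene symbol, differed between the 2 doses: its change from control was 3.56 higher at 10 nM than at 1 µM (log2, SE 0.36; adjusted p = 0.0169, limma with Benjamini-Hochberg), by the test of the difference between the doses itself. All 3 arrays at 10 nM, the lowest at 0.51, lay above all 3 at 1 µM, the highest at -1.84. No other of 31471 probes passed. The call was lost with only these 2 groups in the fit (smallest adjusted p = 0.340, limma), with the replicate block as a fixed term (0.119, limma) and with array weights (0.0526, limma). It was also lost without 10 nM replicate 2, 10 nM replicate 3, 1 µM replicate 2 or 1 µM replicate 3 in turn.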

How the results depend on the processing

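At 10 nM against control 0 probes passed in limma under all 18 other settings. At an unadjusted p under 0.05 there were 744 to 1324 probes, or 396 genes with 1 value per gene. The smallest adjusted p was 0.208 with only these 2 groups, 0.255 without 10 nM replicate 2 and 0.328 with 1 value required in each group. Against 100 nM 0 passed under all 17 other settings. Against 1 µM the 1 call became 2 with a value required on all 3 arrays of both groups, where Epb41l2 (-1.69, adjusted p = 0.0390) was added. It became 0 with the replicate block as a fixed term, with only the 2 groups and with array weights. With 1 value per gene it was 0 by construction, since the called probe has no symbol and cannot enter that fit. Leaving out 1 array gave 0 to 1 calls: 0 without 10 nM replicate 2, 10 nM replicate 3 or 1 µM replicate 3. Without 1 µM replicate 2 the call was a probe of Plec (1.61) in place of probe 27598. The cause was not tested.

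Whether replicate numbers pair the samples is not settled. The array titles are numbered in sequence by replicate set, and the labels do not say what a set shared. Deviations of control and 10 nM arrays with the same number correlated at 0.19, -0.04 and 0.22 for numbers 1 to 3, beside -0.23 to 0.08 for arrays with other numbers. For numbers 1 and 3 this was above every correlation of arrays with other numbers, and for number 2 it was not. No label states a block, so the main fit did not take the numbers as pairs, and blocked fits were run as other settings. With the replicate block as a fixed term 0 probes passed against control and 1215 had an unadjusted p under 0.05. As a random term the counts were 0 and 993, with a correlation of 0.0454.

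Of 115 named results, 112 kept their direction under each other setting run for them (14 for 110 results, 12 for 4 and 10 for 1, where blanks left too few values), and 0 passed in any. Most of them were picked for their values on these same arrays, so a kept direction is partly a product of that choice. Leaving out control replicate 1 moved 36 of the 115 by over 1.5 times, and each other array 15 to 28 of them. Fkbp4 turned to 0.0752 with quantile normalization and ran from -0.10 to 0.052 when 1 array was left out, above 0 without control replicate 1 (0.0408), control replicate 2 (0.0231) or 10 nM replicate 2. Ahsa1 turned to 0.0209 with array weights and ran from -0.42 to 0.0343 when 1 array was left out, above 0 without 10 nM replicate 3. Esam ran from -0.0225 to 0.37, below 0 without control replicate 3. The cause was not tested.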

Other observations

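Blank values give a reading that the fit does not use. At 10 nM 20 probes had a value on all 3 arrays and on no control array, and 35 had the reverse. For 100 nM against control these counts were 22 and 30, for 1 µM 24 and 71. The probes with values at 10 nM and not in control include those of Ythdf3, a reader of methylated RNA (0.07, 0.19 and 0.46), and Rit2, a small GTPase (0.14, 0.51 and 1.52). Those with values in control and not at 10 nM include Atn1, the atrophin transcriptional corepressor gene (1.91, 1.45 and 1.15), and Glcci1, a glucocorticoid-induced gene (-2.12, -2.15 and -2.62). These 4 were chosen after their values were seen. The sources used here do not say why a spot is blank.

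The genes with the most probes show how far probes of 1 gene differed at 10 nM. The changes over 94 probes of Lrp1 had an SD of 0.16, over 73 of Ywhaz 0.18, over 69 of B2m 0.14, over 66 of Sdha 0.22 and over 64 of Hprt 0.23. The medians of these 5 genes lay between -0.07 and 0.09. Hprt is a gene often used as a constant standard, and its probes ranged from -1.06 to 0.41.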
